A study of Mus musculus with 14 samples.

Results

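The genes described here encode the 8 subunits of the m6A writer complex: Mettl3 and Mettl14, the catalytic pair, and 6 adaptor subunits, Wtap, Virma, Zc3h13, Cbll1, Rbm15 and Rbm15b. They were taken by name from a list of complex members, with earlier results of these data known. They make up 8 of the 55416 genes in the count table. All 8 had 1 Ensembl identifier each and passed the filter on low counts in a table of 18430 tested genes.

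The writer complex places N6-methyladenosine (m6A) on messenger RNA in the nucleus while it is being made. METTL3 transfers the methyl group from S-adenosylmethionine, METTL14 holds the RNA and activates METTL3, and the adaptor subunits place the pair in nuclear speckles and bring it to particular transcripts. The mark is read by YTH proteins and speeds the decay of many transcripts, and in mouse early embryo cells it is known for limiting the lifetime of pluripotency and lineage transcripts.

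The 14 libraries of total RNA came from stem cells of 3 types, all of a Mus molossinus by Mus musculus hybrid strain of mouse. Epiblast stem cells (EpiSC), of the genotype XmolXmus-ΔTsix and grown with Fgf2 and Activin A, and trophoblast stem cells (TSC), wild type and grown with Fgf4 in medium conditioned by embryonic fibroblasts, gave 2 libraries in each arm. Extraembryonic endoderm stem cells (XEN), wild type and grown in DMEM with serum, gave 3 in each arm. The arms were STM2457, an inhibitor of METTL3's catalytic activity, given for 12 h at 50 µM, and DMSO, its solvent. Cell type and medium cannot be told apart in any comparison between lines, nor can genotype in those with EpiSC, which alone carry ΔTsix. Where n is not given, it is 3 libraries per arm in XEN and 2 in TSC and EpiSC. Separate cultures for the replicates are not stated by the labels; a p-value here therefore covers the spread among these libraries alone, which may be technical.

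Depth was lowest in XEN, at 6826496 to 10024628 counts, against 18640099 to 21097380 for EpiSC libraries and 17909934 to 20354242 for TSC libraries, and between 3485 and 13428 of them fell on the 8 writer genes. The XEN libraries stood apart in more than depth: mitochondrially encoded genes took 12.8 to 17.0% of their counts, against 1.02 to 1.46% in the other libraries, and 101 histone genes took 0.448 to 0.662%, against 0.0178 to 0.0292%. The labels held against markers. The summed level of 7 epiblast genes was 1050 to 1231 CPM (counts relative to the library's TMM-adjusted total) in EpiSC and at most 0.666 in XEN, though 480 to 535 in TSC, where Sox2 and Pou3f1 carried it and Pou5f1 was at 0. The sum of 7 trophoblast genes was 1901 to 2017 CPM in TSC, at most 227 in EpiSC and 72.6 in XEN, and that of 7 endoderm genes 2721 to 3114 CPM in XEN and at most 40.9 elsewhere. The sum of 7 fibroblast genes, which feeder cells would bring, was 41.7 to 43.6 CPM with STM2457 and 48.3 to 55.0 with DMSO in EpiSC, and at most 4.24 elsewhere. Col1a1 and Col1a2 carried it, with means of 27.1 and 17.5 CPM in DMSO EpiSC, and Postn was at 4.20. The means of Col3a1, Thy1, Dcn and Lum were at most 1.39 CPM there, and that of Thy1 in DMSO TSC was 1.49. The part of feeder cells in the EpiSC results was not tested. In bulk libraries, fewer cells of a type and less RNA per cell cannot be told apart.

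Averaged over the 3 lines, 5 of the 6 adaptor genes rose with STM2457 and neither gene of the catalytic pair passed the test. The rises were largest for Wtap, by 0.76 ± 0.097 on the log2 scale (SE, a 1.70-fold rise), followed by Rbm15 at 0.53 ± 0.062, Cbll1 at 0.48 ± 0.074, Rbm15b at 0.40 ± 0.055 and Virma at 0.37 ± 0.053. Adjusted p-values of the 5, by edgeR's quasi-likelihood test with Benjamini-Hochberg adjustment over all tested genes, ran from 5.33e-05 to 0.000463, and all 5 were also called in each of 21 alternative fits. Over all tested genes, 7.78% were called higher in this mean effect and 13.4% in either direction. Zc3h13 had a value of 0.24 ± 0.080 with an adjusted p of 0.0558, just outside the threshold of 0.05, which became 0.000527 when libraries were blocked by replicate number within each line. Same-numbered libraries deviated together in XEN only, so in EpiSC and TSC the block pairs libraries by a label alone. Zc3h13 also passed without XEN STM2457 replicate 1 or XEN DMSO replicate 2 (adjusted p of 0.0163 and 0.0129 by edgeR). The median over the 6 adaptors was 0.44, that over all tested genes −0.0029. All 3 lines enter this mean equally, and the XEN libraries vary more between replicates than the others.

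**Figure D1:**
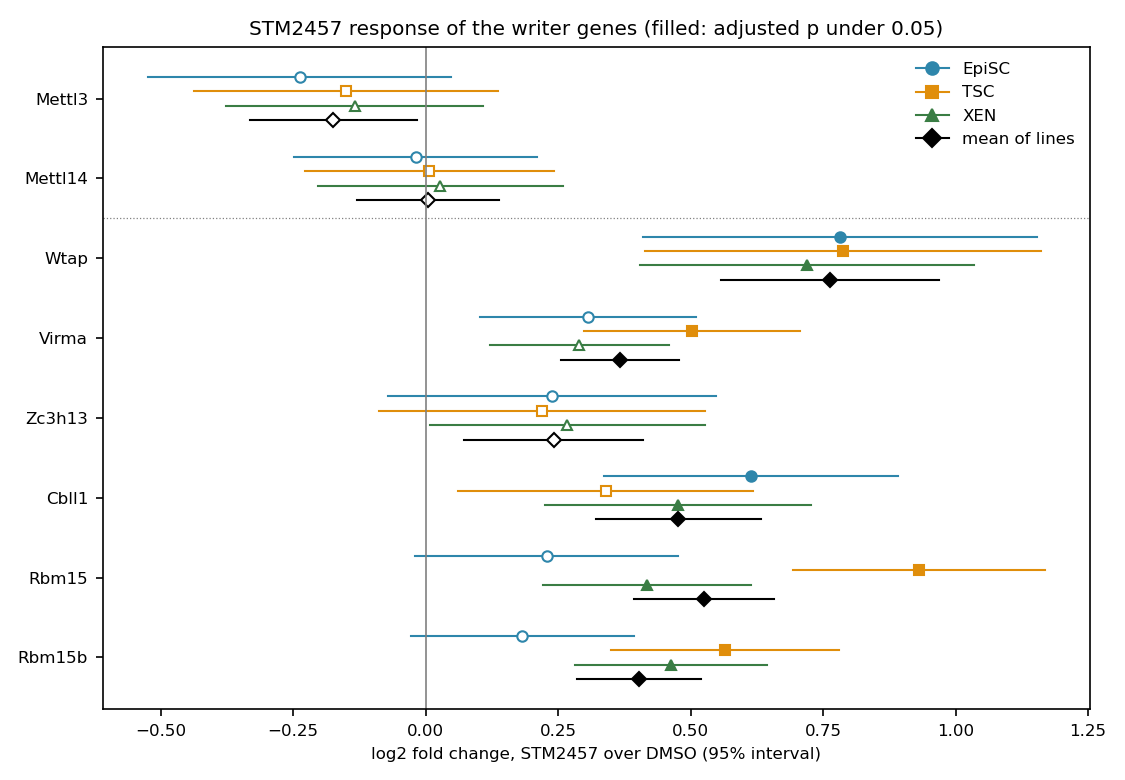
log2 fold change of each writer gene, STM2457 over DMSO, in EpiSC (circles), TSC (squares), XEN (triangles) and as the mean of the lines (diamonds), with 95% intervals; filled symbols have an adjusted p under 0.05. Every adaptor value lies above 0 in all 3 lines, from 0.18 to 0.93, while those of Mettl3 and Mettl14 lie between −0.24 and 0.027.

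The plot of fold changes by line gives the values within each line. The fit takes 1 estimate of spread per gene from all groups. The SE and p of a line therefore do not measure the spread of that line's own libraries, which was wider in XEN. In EpiSC 2 adaptors rose, Wtap and Cbll1; in TSC 4, Rbm15, Wtap, Rbm15b and Virma; in XEN 4, Wtap, Cbll1, Rbm15b and Rbm15. Over all tested genes 1.28% were called higher in EpiSC, 0.836% in TSC and 3.07% in XEN, and 1.68%, 0.966% and 4.15% in either direction. No member was called lower in any line in the fit of all libraries, in which 0.402%, 0.13% and 1.07% of all tested genes were. In EpiSC fitted alone Mettl3 was called lower (−0.25, adjusted p = 0.0384 by edgeR), in a fit that called 4321 genes in either direction. Every STM2457 library lay above every DMSO library of its line for all 6 adaptors in EpiSC and TSC and for 5 in XEN; of all tested genes 29.6%, 27.9% and 8.36% did so, and 26.5%, 27.8% and 7.03% lay below. Wtap was the one adaptor called in all 3 lines, and each of the other 4 called ones passed in 1 or 2 lines only. No difference between lines in these responses passed its own test by edgeR without the replicate block. Rbm15 passed for EpiSC minus TSC by edgeR with the block and by DESeq2 (adjusted p = 0.0129 in each). In these lines the block rests on replicate numbers that share only a label. When XEN was fitted alone by edgeR, none of its 4 calls was kept, with 5 members at an unadjusted p under 0.05 and 25 of all genes called. DESeq2 on all libraries called 5 members in XEN, among 1363 genes. With the replicate block, whose numbers pair the XEN libraries, XEN fitted alone kept all 4 calls and added Virma. That made 5 called members among 1499 genes, and the fit of all libraries with the block had 6 among 2447.

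Mettl3 (ENSMUSG00000022160, chromosome 14) encodes the methyltransferase itself, the protein that STM2457 binds. It is the inhibitor's target as a protein and was not deleted, so its transcript level is no check of the labels. Its level was 26.5 and 26.3 CPM in STM2457-treated EpiSC, against 32.3 and 30.0 CPM in DMSO EpiSC. In TSC it was 30.9 and 27.7 CPM with STM2457, against 30.6 and 34.4 CPM with DMSO, and in XEN 48.4, 41.0 and 50.1 CPM with STM2457, against 48.7, 46.5 and 57.6 CPM with DMSO. The arms overlapped in TSC and XEN and did not in EpiSC, where both treated libraries were lower. The fold change was −0.24 ± 0.136 in EpiSC, −0.15 ± 0.135 in TSC and −0.13 ± 0.115 in XEN, with adjusted p-values of 0.439, 0.699 and 0.636. With EpiSC fitted alone the EpiSC value was −0.25 and passed, with an adjusted p of 0.0384 by edgeR, or of 0.0245 with the replicate block. Of all genes, those fits called 4321 and 4872. The mean over lines was −0.17 ± 0.074, with a 95% interval of −0.33 to −0.017 and an adjusted p of 0.146. With the replicate block, whose numbers pair the XEN libraries only, the adjusted p of the mean was 0.0295 by edgeR. In the annotation, 933 bases of the Mettl3 exons (18.4%) lie opposite exons of Tox4, and whether reads were counted by strand is not stated in the labels or the submitters' notes. Tox4 itself, at 91 to 195 CPM over all libraries, was not called for STM2457 in any line, with fold changes between −0.092 and 0.055. How far its reads enter the Mettl3 count, also in comparisons between lines, was not tested.

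Mettl14 (ENSMUSG00000028114, chromosome 3) encodes the partner that forms the stable heterodimer with METTL3. It stood at 52.6 and 51.5 CPM in STM2457-treated EpiSC, against 53.1 and 52.4 CPM in DMSO EpiSC. In TSC it was 30.9 and 34.6 CPM with STM2457, against 31.8 and 33.4 CPM with DMSO, and in XEN 17.0, 17.0 and 16.9 CPM with STM2457, against 16.6, 16.2 and 17.1 CPM with DMSO. The arms overlapped in all 3 lines. Its mean effect was 0.0051 ± 0.063 with a 95% interval of −0.13 to 0.14, so that at this number of libraries a rise of the size seen for Virma lay outside the interval. The sign of this mean changed in 5 of 14 fits that left out 1 library, and under no other setting. Scaling on ribosomal protein genes turned the sign of the EpiSC and XEN values, which are also near 0.

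**Figure D2:**
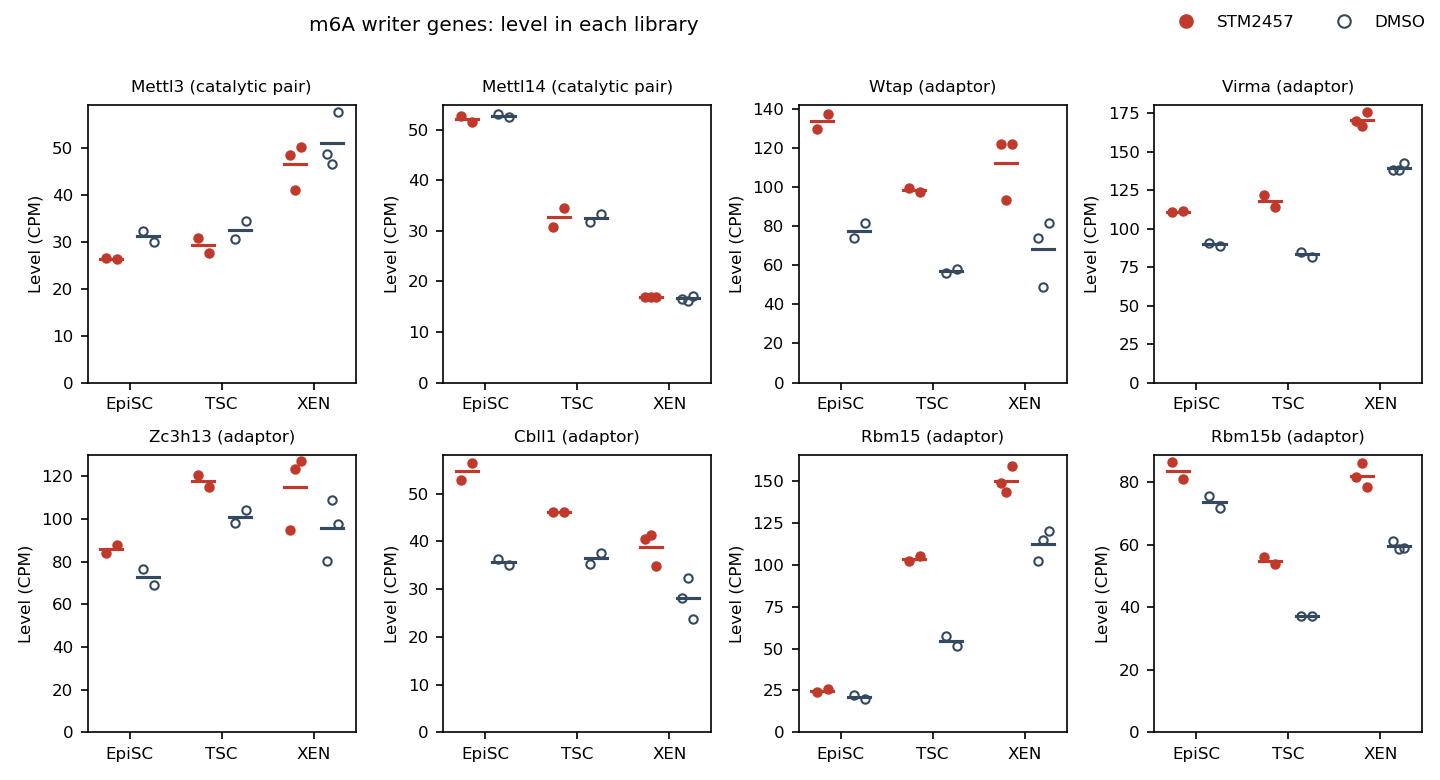
Level of each writer gene in CPM in every library, by line, with STM2457 (filled) left of DMSO (open); horizontal bars are group means (n = 2 per arm in EpiSC and TSC, 3 in XEN) and every axis starts at 0. For Wtap, Virma, Cbll1, Rbm15 and Rbm15b every treated library lies above every DMSO library of its line, while for Mettl14 the arms overlap in each line.

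Wtap (ENSMUSG00000060475, chromosome 17) encodes the subunit that binds the METTL3-METTL14 pair and keeps it in nuclear speckles. It stood at 129.6 and 137.5 CPM in STM2457-treated EpiSC, against 73.8 and 81.6 CPM in DMSO EpiSC. In TSC it was 99.7 and 97.4 CPM with STM2457, against 56.0 and 58.1 CPM with DMSO. In XEN it was 121.8, 93.3 and 122.0 CPM with STM2457, against 73.8, 49.1 and 81.4 CPM with DMSO, the second replicate being the lowest in each arm. No treated library reached down to a DMSO library in any line. The rise was 0.78 ± 0.175 in EpiSC (adjusted p = 0.0337 by edgeR's quasi-likelihood test), 0.79 ± 0.177 in TSC (adjusted p = 0.0449) and 0.72 ± 0.149 in XEN (adjusted p = 0.0127). These are 1.72-, 1.73- and 1.65-fold. Differences between lines in the rise were at most 0.068 in size, the widest 95% interval among them running from −0.53 to 0.52. The XEN call was lost when XEN STM2457 replicate 1 was left out (adjusted p = 0.0555 by edgeR) and when XEN was fitted alone (0.175). It was kept in XEN alone with the replicate block. The EpiSC call was lost without any one of the 4 EpiSC or 4 TSC libraries, with values of 0.71 to 0.85. The TSC call was lost without any one of those 8 or XEN STM2457 replicate 1, with values of 0.77 to 0.81.

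Virma (ENSMUSG00000040720, chromosome 4) encodes the large scaffold subunit of the adaptor part. Its level was 110.6 and 111.4 CPM in STM2457-treated EpiSC, against 90.8 and 88.7 CPM in DMSO EpiSC. In TSC it was 122.1 and 113.8 CPM with STM2457, against 85.1 and 81.4 CPM with DMSO, and in XEN 170.0, 166.4 and 175.6 CPM with STM2457, against 138.2, 137.8 and 142.7 CPM with DMSO. The arms did not overlap in any line. The rise of 0.50 ± 0.096 in TSC passed (adjusted p = 0.0214), whereas values of 0.31 ± 0.096 in EpiSC and 0.29 ± 0.080 in XEN had adjusted p-values of 0.126 and 0.0501. With the replicate block the XEN value had an adjusted p of 0.00638, and the TSC call was lost without any one of the 4 TSC or 4 EpiSC libraries (0.0514 to 0.333).

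Zc3h13 (ENSMUSG00000022000, chromosome 14) encodes a zinc-finger protein that holds the adaptor subunits in the nucleus in mouse embryonic stem cells. It stood at 84.0 and 87.6 CPM in STM2457-treated EpiSC, against 76.5 and 68.9 CPM in DMSO EpiSC, and at 120.4 and 114.7 CPM with STM2457 in TSC, against 97.8 and 104.0 CPM with DMSO. In XEN it was 94.8, 123.1 and 127.1 CPM with STM2457, against 80.1, 109.0 and 97.3 CPM with DMSO. The arms were apart in EpiSC and TSC and overlapped in XEN. Values of 0.24 ± 0.146 in EpiSC, 0.22 ± 0.145 in TSC and 0.27 ± 0.123 in XEN did not pass (adjusted p from 0.270 to 0.562), and the XEN value had an adjusted p of 0.0226 with the replicate block. Fitted alone by edgeR, EpiSC and TSC each gave 0.23 and passed, with adjusted p of 0.0156 and 0.00847. Those fits called 4321 and 4378 of all genes. XEN fitted alone without the block did not call Zc3h13.

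Cbll1 (ENSMUSG00000020659, chromosome 12), also called Hakai, encodes a RING-finger ubiquitin ligase that is part of the adaptor group. It stood at 52.8 and 56.5 CPM in STM2457-treated EpiSC, against 36.3 and 35.1 CPM in DMSO EpiSC, and at 46.2 and 46.0 CPM with STM2457 in TSC, against 35.3 and 37.5 CPM with DMSO. In XEN it was 40.5, 41.2 and 34.9 CPM with STM2457, against 28.0, 32.4 and 23.8 CPM with DMSO. The treated libraries were the higher ones in every line. The rise was 0.61 ± 0.131 in EpiSC (adjusted p = 0.0261) and 0.48 ± 0.119 in XEN (adjusted p = 0.0320), and the TSC value of 0.34 ± 0.132 did not pass (adjusted p = 0.258). The XEN call was lost in 11 of 14 fits that left out 1 library, with adjusted p-values of 0.0525 to 0.130, and kept without XEN DMSO replicate 1, XEN DMSO replicate 2 or XEN STM2457 replicate 3; the EpiSC call was lost without any one of the 4 EpiSC or 4 TSC libraries (0.0581 to 0.303). The antisense gene Gm29542, which lies opposite 17.6% of the Cbll1 exons, had at most 0.102 CPM in any library.

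RBM15 and RBM15B are paralogs that bind uridine-rich stretches and bring the complex to transcripts, Xist among them in human cells. The genes are built alike in having few introns. In the annotation Rbm15b has 1 exon of 6511 bases and the longest coding transcript of Rbm15 has 2 exons, against a median of 9 exons over 14328 protein-coding genes, and Rbm15b holds 32 GGAC tetramers, letters at the heart of the consensus for m6A, and Rbm15 holds 27, against a median of 13 per gene. Per kb of transcript this is 4.91 for Rbm15b and 6.22 for Rbm15, against a median of 4.19. Of the other writer genes, Virma has 25 exons and Zc3h13 19, more than the median, as has Mettl3 with 11, and Mettl14 with 7 and Wtap and Cbll1 with 6 each have fewer. The catalytic genes stood at 6.91 GGAC per kb for Mettl3 and 2.64 for Mettl14, at either side of the median. The other adaptors also lay on both sides, Zc3h13 at 5.04 and Virma at 4.41 above it, Cbll1 at 3.8 and Wtap at 3.45 below. A high count per gene was not particular to the paralogs, as Zc3h13 held 31 GGAC and Virma 29. Mettl14 held 19, Cbll1 15, Mettl3 14 and Wtap 11.

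Rbm15 (ENSMUSG00000048109, chromosome 3) showed the widest range of the 8, taken as the ratio of the highest to the lowest group. It stood at 23.8 and 25.6 CPM in STM2457-treated EpiSC, against 22.1 and 20.1 CPM in DMSO EpiSC. In TSC it was 102.0 and 105.0 CPM with STM2457, against 57.2 and 51.4 CPM with DMSO, and in XEN 148.6, 143.0 and 158.6 CPM with STM2457, against 102.1, 114.8 and 119.9 CPM with DMSO. The arms were apart in all 3 lines, by little in EpiSC. The TSC rise of 0.93 ± 0.113 (1.91-fold, adjusted p = 0.00119) passed, as did the XEN rise of 0.42 ± 0.093 (adjusted p = 0.0169), and the EpiSC value of 0.23 ± 0.118 did not (adjusted p = 0.384). The TSC call was lost without TSC DMSO replicate 2, where the value was 0.85. The XEN call was lost when XEN was fitted alone (adjusted p = 0.193 by edgeR) or scaled on ribosomal protein genes (0.325), and kept in XEN alone with the replicate block.

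Rbm15b (ENSMUSG00000074102, chromosome 9) stood at 86.3 and 81.0 CPM in STM2457-treated EpiSC, against 75.7 and 71.7 CPM in DMSO EpiSC. In TSC it was 55.9 and 53.9 CPM with STM2457, against 37.1 and 37.2 CPM with DMSO, and in XEN 81.8, 86.1 and 78.4 CPM with STM2457, against 61.1, 58.6 and 59.0 CPM with DMSO. The arms were apart in all 3 lines. The rise was 0.56 ± 0.102 in TSC (adjusted p = 0.0147) and 0.46 ± 0.086 in XEN (adjusted p = 0.00613), and the EpiSC value of 0.18 ± 0.100 did not pass (adjusted p = 0.416). The TSC call was lost without any one of the 4 TSC libraries, with values of 0.55 to 0.58. The XEN call was lost when XEN was fitted alone (adjusted p = 0.159 by edgeR) or scaled on ribosomal protein genes (0.180), and kept in XEN alone with the replicate block. The neighbour Dcaf1, which shares 75 bases (1.15%) with Rbm15b on the opposite strand, rose by 0.28 ± 0.057 in the mean over lines (adjusted p = 0.00389), and how far its reads enter the Rbm15b count was not tested.

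Whether a response differs between lines was tested as the difference of 2 line effects. By edgeR without the replicate block none of the 8 members was called in any of the 3 tests of this kind, in which 0.00543% to 0.0109% of all tested genes were. At an unadjusted p under 0.05 there was 1 member for TSC minus XEN (Rbm15), 1 for EpiSC minus XEN (Rbm15b) and 2 for EpiSC minus TSC (Rbm15 and Rbm15b); DESeq2 called 0, 0 and 1. The EpiSC minus TSC difference for Rbm15 was −0.70 ± 0.162, with a 95% interval of −1.05 to −0.36, an unadjusted p of 0.000477 and an adjusted p of 0.590. DESeq2 and the edgeR fit with the replicate block gave differences of −0.71 and −0.70, each with an adjusted p of 0.0129, and called 22 and 111 of all genes. Same-numbered libraries did not deviate together in EpiSC or TSC, so the block has no basis there beyond the label. The Rbm15 difference of TSC minus XEN was 0.51 ± 0.145 (adjusted p = 0.845). A larger response of Rbm15 in TSC than in EpiSC thus depended on the test used.

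Promoter windows are printed for Wtap and Rbm15, which had the largest mean rises, and for Rbm15b, the paralog of Rbm15. The windows run from 250 bases before to 50 bases after the RefSeq start, on build GRCm38.p6, and are given 5′ to 3′ on the gene's own strand. Capitals mark matches, on either strand and overlaps included, to the E-box CACGTG, the CCAAT box CCAAT, the GC box GGGCGG and the YY1 motif AAGATGGC. Wtap is the first of 3 windows in the table, at chr17:12992494-12992793, Rbm15 is at chr3:107333240-107333539 and Rbm15b at chr9:106887026-106887325, all on the minus strand.
Wtap: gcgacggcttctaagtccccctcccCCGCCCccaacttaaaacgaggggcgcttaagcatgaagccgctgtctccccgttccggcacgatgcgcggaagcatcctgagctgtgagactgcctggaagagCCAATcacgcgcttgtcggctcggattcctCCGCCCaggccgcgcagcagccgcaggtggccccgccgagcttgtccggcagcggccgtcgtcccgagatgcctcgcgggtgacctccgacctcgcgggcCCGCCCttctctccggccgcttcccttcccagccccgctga
Rbm15: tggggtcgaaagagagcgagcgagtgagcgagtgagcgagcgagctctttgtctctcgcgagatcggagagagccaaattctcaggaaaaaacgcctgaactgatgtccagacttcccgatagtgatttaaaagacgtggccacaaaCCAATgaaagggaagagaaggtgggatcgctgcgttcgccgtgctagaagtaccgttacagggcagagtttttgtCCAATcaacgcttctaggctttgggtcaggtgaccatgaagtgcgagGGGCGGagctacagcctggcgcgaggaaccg
Rbm15b: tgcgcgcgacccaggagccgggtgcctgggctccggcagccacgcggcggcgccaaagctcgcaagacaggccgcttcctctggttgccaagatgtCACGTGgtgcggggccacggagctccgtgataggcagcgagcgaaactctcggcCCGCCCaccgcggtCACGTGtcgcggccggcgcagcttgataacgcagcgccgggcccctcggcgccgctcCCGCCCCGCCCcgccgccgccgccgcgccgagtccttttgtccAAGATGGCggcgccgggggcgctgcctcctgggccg

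The Rbm15b window held 2 E-boxes, 3 GC boxes and 1 YY1 motif, the Rbm15 window 2 CCAAT boxes and 1 GC box, and the Wtap window 1 CCAAT box and 3 GC boxes. Of 27025 promoter windows of this length, 7.24% held the E-box, 37.9% the CCAAT box, 35.9% the GC box and 2.88% the YY1 motif. Among the other members with a window, Cbll1 had 2 GC boxes, Zc3h13 had 1, and Mettl3 had none of the motifs. The cyclic AMP response element TGACGTCA, in 1.88% of windows, is in none of the 6 members' windows. The 3 printed windows share the GC box and no other motif. GC content was 75.3% for Rbm15b, 69.3% for Wtap and 54.3% for Rbm15, against a median of 52.7% over all windows. These matches describe the letters of the windows and are not binding sites.

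The catalytic pair was set against the adaptors within each library, as the mean log2 CPM of Mettl3 and Mettl14 minus that of the 6 adaptors. The difference was −0.93 and −0.99 in STM2457-treated EpiSC, against −0.44 and −0.45 in DMSO EpiSC, and −1.46 and −1.42 in treated TSC, against −0.87 and −0.76 in DMSO TSC. In XEN it was −1.79, −1.91 and −1.81 with STM2457, against −1.34, −1.42 and −1.27 with DMSO. The arms did not overlap in any line, and the group means were lower by 0.52, 0.63 and 0.49 in the treated arm in EpiSC, TSC and XEN. Because the measure compares genes within a library, it does not depend on how libraries are scaled. It describes CPM, which scale with transcript length, so the size of the difference says nothing of molecules per subunit, and it is given as a description, with no test.

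**Figure D3:**
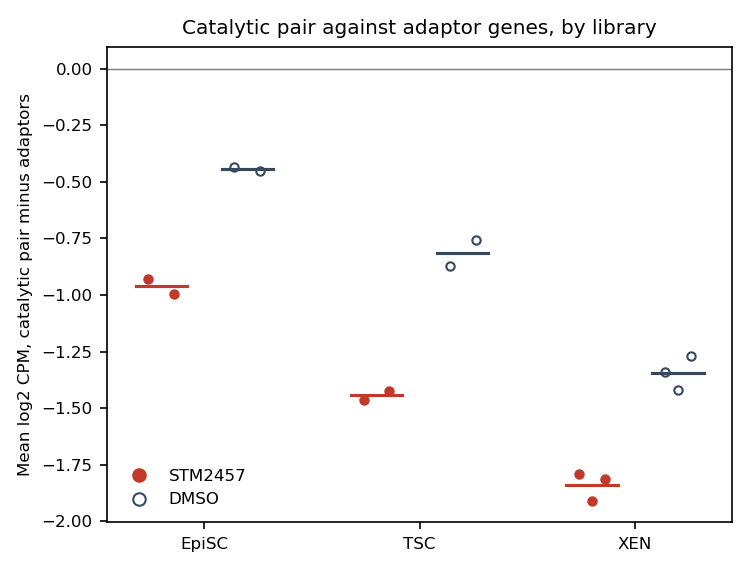
Mean log2 CPM of the catalytic pair minus that of the 6 adaptors in every library, by line, with STM2457 (filled) left of DMSO (open); bars are group means. Treated libraries lie below all DMSO libraries of their line, EpiSC DMSO being highest at −0.44 and XEN STM2457 lowest at −1.84.

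Per kb of merged exons, the unit in which genes can be set against each other, the order of the members in DMSO differed between lines. In DMSO EpiSC the highest were Virma at 12.6 ± 0.21 CPM per kb (SD), Wtap at 12.4 ± 0.88, Zc3h13 at 11.6 ± 0.86 and Rbm15b at 11.3 ± 0.44, each overlapping the next in this order, while Virma and Rbm15b did not overlap, then Cbll1 at 8.92 ± 0.21, Mettl14 at 7.11 ± 0.057 and Mettl3 at 6.14 ± 0.33. Rbm15, at 2.84 ± 0.18, was the lowest. In DMSO TSC the order began with Zc3h13 at 16.1 ± 0.70 and Virma at 11.7 ± 0.36, and ended with Mettl14 at 4.39 ± 0.15. Between them, Wtap at 9.13 ± 0.24 and Cbll1 at 9.09 ± 0.39 did not differ beyond their spread, while Rbm15 stood at 7.31 ± 0.55, Mettl3 at 6.40 ± 0.53 and Rbm15b at 5.70 ± 0.011. In DMSO XEN Virma was highest at 19.6 ± 0.38, Zc3h13 at 15.2 ± 2.32 and Rbm15 at 15.1 ± 1.23 were alike within their spread, and Mettl14 was lowest at 2.24 ± 0.060. These orders depend on the exon length used. Per kb of the longest coding transcript, Mettl3 in DMSO XEN stood at 25.2 rather than 10.0 CPM per kb.

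**Figure D4:**
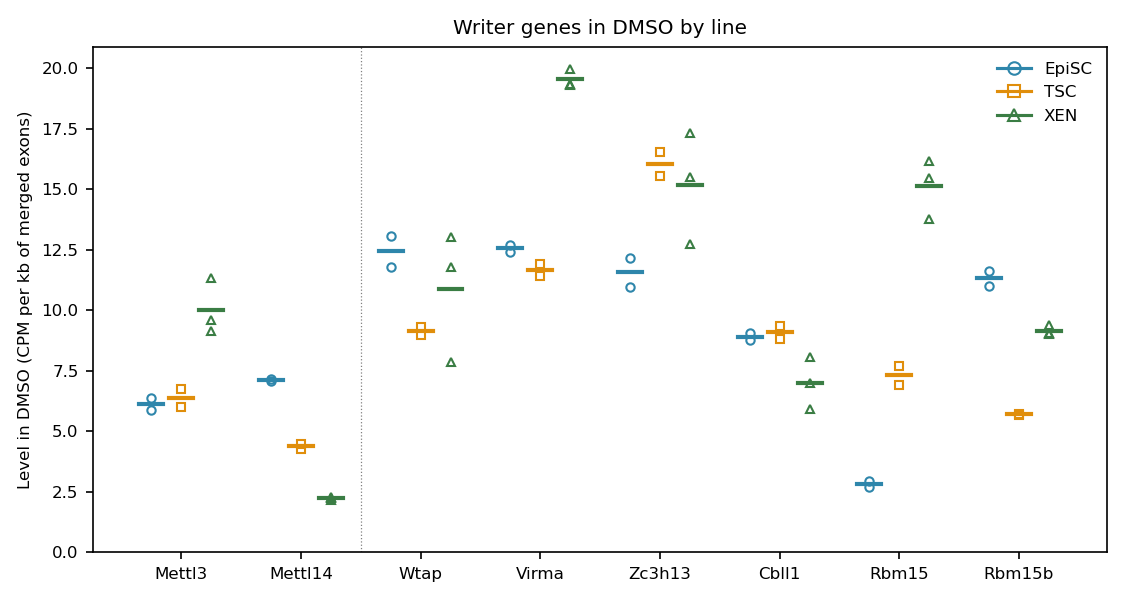
Level of each writer gene in DMSO, in CPM per kb of merged exons, in EpiSC (circles), TSC (squares) and XEN (triangles); symbols are libraries and bars are means. Rbm15 is lowest in EpiSC (2.84) and highest in XEN (15.1), and Mettl14 runs the other way, 7.11 in EpiSC and 2.24 in XEN.

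Levels between lines in DMSO were compared by gene. Of the 8 members, 5 differed for EpiSC over TSC, 7 for EpiSC over XEN and 6 for TSC over XEN; the shares of all tested genes called were 54.4%, 71.7% and 72.5%, so these counts are not particular to the members. The largest contrast was Rbm15, lower in EpiSC than in TSC by 1.36 ± 0.117 and than in XEN by 2.41 ± 0.115 on the log2 scale, the 2.41 being a ratio of 0.188. Rbm15 was also lower in TSC than in XEN, at −1.05 ± 0.106. Its paralog Rbm15b went another way, higher in EpiSC than in TSC by 0.99 ± 0.102 and lower in TSC than in XEN, at −0.68 ± 0.097. Mettl14 was higher in EpiSC than in TSC by 0.70 ± 0.110 and than in XEN by 1.66 ± 0.108, and higher in TSC than in XEN by 0.97 ± 0.110. Mettl3 was lower in EpiSC and TSC than in XEN, at −0.71 ± 0.128 and −0.65 ± 0.127, and so was Virma, at −0.64 ± 0.090 and −0.75 ± 0.090. The other calls were Wtap (0.45) and Zc3h13 (−0.47) for EpiSC over TSC, Zc3h13 (−0.39), Cbll1 (0.35) and Rbm15b (0.31) for EpiSC over XEN, and Cbll1 (0.38) for TSC over XEN. Several of these smaller calls were lost when 1 library was left out, by adjusted p from the same edgeR test. For Wtap in EpiSC over TSC, some of those libraries were STM2457 ones, which are not in the groups compared. Its value ran from 0.37 to 0.52 over all 14 such fits. For EpiSC over TSC, Wtap was lost without any one of the 4 EpiSC or 4 TSC libraries (0.0572 to 0.205), and Zc3h13 without TSC DMSO replicate 2 (0.0669) or EpiSC DMSO replicate 2 (0.0962). For EpiSC over XEN, Zc3h13 was lost without XEN DMSO replicate 2 (0.0548) or EpiSC DMSO replicate 2 (0.158), Cbll1 without XEN DMSO replicate 3 (0.106) or EpiSC DMSO replicate 1 (0.0818), and Rbm15b without EpiSC DMSO replicate 1 (0.0600). For TSC over XEN, Cbll1 was lost without XEN DMSO replicate 3 (0.0724) or TSC DMSO replicate 2 (0.0610), and Wtap became a call without XEN DMSO replicate 2 (0.00347).

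All of these differences rest on the scaling of libraries that differ in make-up. Scaling on 80 ribosomal protein genes instead moved the median of all genes by −0.78 for EpiSC over XEN, by −1.07 for TSC over XEN and by 0.29 for EpiSC over TSC. It turned the sign of Cbll1 in all 3 contrasts, of Mettl14 and Zc3h13 for TSC over XEN, of Wtap and Rbm15b for EpiSC over XEN and of Mettl3 for EpiSC over TSC. The directions of Rbm15 in all 3, of Mettl3 and Virma against XEN, of Mettl14 for EpiSC over XEN and EpiSC over TSC, and of Rbm15b for EpiSC over TSC and TSC over XEN held under that scaling. The part that library make-up plays in the XEN contrasts was not tested.

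Ratios of counts within a library need no scaling between libraries; they are not corrected for transcript length and are therefore set between groups only. The ratio of Mettl3 to Mettl14 counts was 0.507 ± 0.0057 with STM2457 and 0.591 ± 0.028 with DMSO in EpiSC, 0.901 ± 0.141 with STM2457 and 0.996 ± 0.048 with DMSO in TSC, and 2.74 ± 0.29 with STM2457 and 3.06 ± 0.27 with DMSO in XEN (SD). This ratio was lowest in EpiSC and highest in XEN, and no library of one line overlapped those of another. The ratio of Rbm15 to Rbm15b was 0.296 ± 0.028 with STM2457 and 0.286 ± 0.0071 with DMSO in EpiSC, against 1.89 ± 0.092 with STM2457 and 1.46 ± 0.113 with DMSO in TSC, and 1.83 ± 0.18 with STM2457 and 1.89 ± 0.19 with DMSO in XEN. Each EpiSC library lay below each library of the other lines. The arms of this ratio were apart in TSC and overlapped in EpiSC and XEN. The ratio of Wtap to Mettl3 was 5.06 ± 0.24 with STM2457 and 2.50 ± 0.31 with DMSO in EpiSC, 3.38 ± 0.21 with STM2457 and 1.76 ± 0.099 with DMSO in TSC, and 2.41 ± 0.121 with STM2457 and 1.33 ± 0.24 with DMSO in XEN. The arms did not overlap in this ratio in any line.

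**Figure D5:**
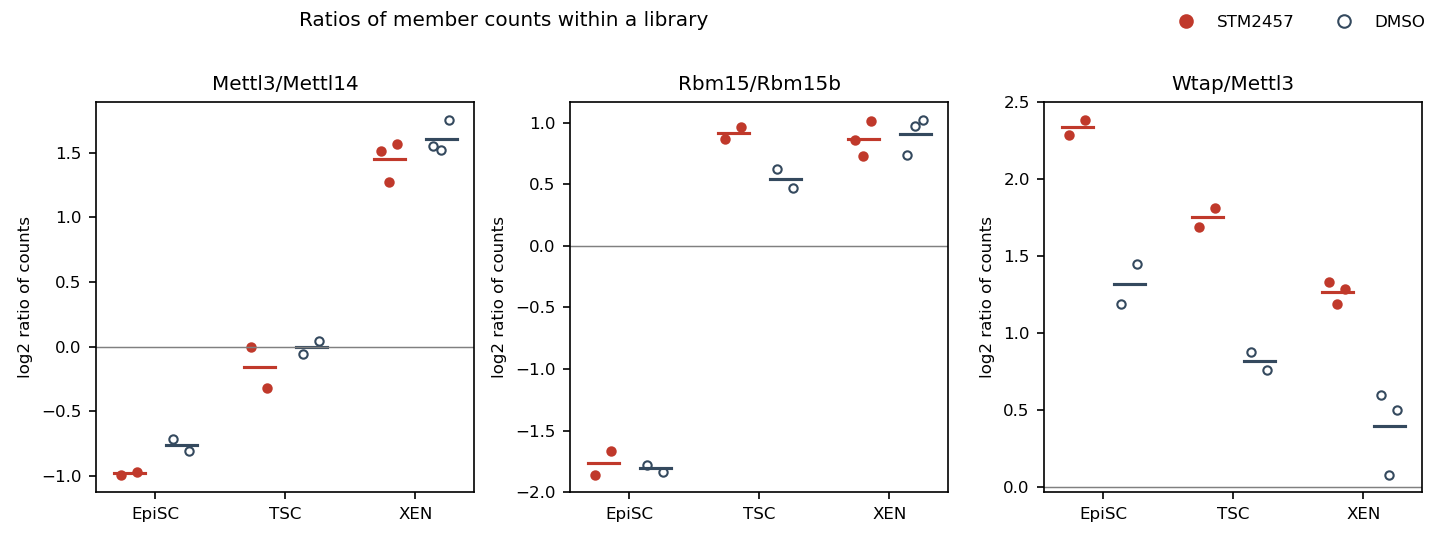
log2 ratio of counts of 2 members within each library, Mettl3 over Mettl14, Rbm15 over Rbm15b and Wtap over Mettl3, by line, with STM2457 (filled) left of DMSO (open); bars are means of the log2 ratios. For Rbm15 over Rbm15b the EpiSC libraries lie below 0 and those of TSC and XEN above it.

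Of the 26 other genes of the m6A pathway, all were tested. In EpiSC 2 rose and 0 fell, in TSC 2 rose and 0 fell, and in XEN 2 rose and 1 fell, where 1.28%, 0.836% and 3.07% of all tested genes were called higher and 0.402%, 0.13% and 1.07% lower. Of the 8 listed readers, 3 were called in at least 1 line. Ythdf2, the cytoplasmic reader that leads methylated transcripts to decay, rose in all 3 lines, by 0.47 ± 0.104 in EpiSC (126.9 ± 0.92 CPM with STM2457, 91.5 ± 1.34 with DMSO), 0.57 ± 0.105 in TSC and 0.73 ± 0.089 in XEN, with adjusted p-values by edgeR of 0.0295, 0.0167 and 0.000248. Ythdc1, the nuclear reader, rose by 0.48 ± 0.113 in EpiSC and by 0.91 ± 0.113 in TSC, where it stood at 203.3 ± 6.9 CPM with STM2457 and 108.1 ± 2.0 with DMSO (adjusted p of 0.0416 and 0.00126 by edgeR). Ythdf1 rose in XEN, by 0.51 ± 0.108 (adjusted p = 0.0131 by edgeR). Mat2b, the regulatory subunit of the enzyme that makes the methyl donor, fell in XEN by 0.33 ± 0.091 (adjusted p = 0.0498), a call that was lost in all 14 fits that left out 1 library (0.0564 to 0.109). In EpiSC the calls of Ythdf2 and Ythdc1 were lost without any one of the 4 EpiSC or 4 TSC libraries (adjusted p of 0.0682 to 0.284 and 0.0932 to 0.382). In TSC that of Ythdf2 was lost without any one of the 4 TSC libraries (0.211 to 0.297) and that of Ythdc1 without either TSC DMSO replicate (0.0617 and 0.0657). In XEN the call of Ythdf2 was kept in all 14 such fits, and that of Ythdf1 was lost without XEN STM2457 replicate 1 (0.0584) or XEN DMSO replicate 3 (0.0611).

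In the mean over lines 4 of these 26 rose and 3 fell, 7.78% and 5.62% of all tested genes being called in those directions. The risers were Ythdf2, Ythdc1 and Ythdf1 with Mettl16, which methylates U6 snRNA and Mat2a RNA (0.34 ± 0.071). The fallers were Mat2b (−0.29 ± 0.058), Nudt21, a cleavage factor subunit reported to bind the complex (−0.35 ± 0.063), and Fmr1, an RNA-binding protein (−0.21 ± 0.059). The call of Fmr1 was lost without any one of the 4 EpiSC or 4 TSC libraries (adjusted p of 0.0613 to 0.0845 by edgeR), and those of the other 6 were kept in all 14 such fits. Of the erasers, Fto and Alkbh5 were not called in any line or in the mean, where their median was 0.091. The median of the 26 was −0.066, against 0.38 for the 8 writer genes and 0.44 for the adaptors.

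The genes with the profile most like that of Mettl3 over the 6 groups, by the root mean square difference of centred log2 CPM, were Cox6a1 (0.042), Trappc6b (0.046) and Hp1bp3 (0.052). Those most like Wtap were B4galt4 (0.101), Ddx28 (0.104) and Fam110b (0.107). The median over 14329 protein-coding genes was 0.75 and 0.76 for the 2 members, and no other writer gene was among the 3 nearest of either.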

How the data were processed

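RNA was sequenced from 14 libraries in 6 groups. Per the labels' protocols, libraries were made with a stranded total RNA kit. Per the submitters' processing notes, FastQC, Trim Galore, STAR and featureCounts were used with build GRCm39 (mm39), with no versions given. The values deposited by the authors are raw counts per gene, with no normalization.

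Gene names and exon lengths came from GENCODE M21 (GRCm38), matched by Ensembl identifier; 52135 of 55416 were named. Its build differs from that of the counting; its coordinates served for exon lengths and for overlaps between genes and were not joined to the counts. Promoter windows are from RefSeq.

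All libraries were fitted in 1 model in edgeR 4.0.16 (R 4.3.3), with TMM scaling, filterByExpr (minimum count 10, minimum total 15) and a robust quasi-likelihood F test, two-sided. Calls were made at 0.05 after Benjamini-Hochberg adjustment over 18430 genes within a comparison. CPM are given per library or as mean ± SD, log2 fold changes as value ± SE. The prior count of the log2 CPM was 2. The fit was tested on simulated data. It recovered 82%, 79% and 81% of log2 changes of 1 in EpiSC, TSC and XEN. Of log2 changes of 0.5 it recovered 14%, 15% and 31%, so a change of that size that did not pass is not shown to be absent. Each gene was simulated with the same spread in all lines. The shares therefore leave out the wider spread between XEN replicates and do not rank the lines. False calls made up 4%, 10.5% and 5.09% of the simulated calls. Replicate numbers paired the XEN libraries: the correlation of deviations from group means was 0.22, 0.38 and 0.34 for the 3 same-numbered pairs.

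The members, gene lists and tests were chosen with earlier results of these data known. The members, those genes of a fixed pathway list that were called and the 3 nearest profiles of Mettl3 and Wtap are named. As alternatives, each library was left out in turn, and DESeq2 1.42.0, a replicate block, fits of single lines, other scalings, no low-count filter and a fold minimum of 1.2 were run.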

Additional observations from a re-analysis of the deposited data

How the results depend on the processing

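The 5 adaptor rises in the mean over lines (Wtap, Rbm15, Cbll1, Rbm15b and Virma) were called in all 21 alternatives run on the mean. These were 14 that left out 1 library and 7 other settings. Fits of single lines and the fold minimum of 1.2 were run within lines only. The catalytic minus adaptor difference moved by less than its spread under another prior count, and library scaling cancels in it. Counts of called members were less stable within lines. The cause of each change was not tested unless the alternative itself gives it. Scaling on ribosomal protein genes left 1 called member in EpiSC, 2 in TSC and 1 in XEN, and a fold minimum of 1.2 left 0, 1 and 0 (by edgeR, 2, 4 and 4 at an unadjusted p under 0.05). Over all genes the ribosomal scaling called 129, 82 and 140, and the fold minimum 62, 24 and 143. Fitted alone, EpiSC had 5 called members, Mettl3 lower, among 4321 called genes. TSC alone had 6 among 4378 and XEN alone 0 among 25 (5 members unadjusted). In XEN, DESeq2 on all libraries gave 5 members among 1363 genes, and XEN alone with the replicate block gave 5 among 1499. Leaving out each library gave 0 to 2 called members in EpiSC, 0 to 4 in TSC, 2 to 4 in XEN and 3 to 5 for EpiSC over TSC in DMSO. Zc3h13 passed in the mean without XEN STM2457 replicate 1 or XEN DMSO replicate 2 (adjusted p = 0.0129 to 0.0163), with DESeq2 (0.0449) and without a low-count filter (0.0365). Among the 7 other pathway genes called, no sign turned in the comparisons that called them. Ribosomal protein scaling ended the mean effect calls of Mat2b (0.177), Nudt21 (0.131) and Fmr1 (0.462), and fitting XEN alone ended those of Ythdf2 (0.0534), Ythdf1 (0.192) and Mat2b (0.334) in XEN, with folds close to those reported (0.74, 0.52 and −0.33); with the replicate block XEN fitted alone kept all 3 (0.000322, 0.00529 and 0.0454).

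The replicate block raised the called members to 3 in EpiSC, 5 in TSC and 6 in XEN, and to 7 in the mean; over all genes the block called 2427, 2036 and 2447, against 309, 178 and 764. It called 1 member, Rbm15, for the EpiSC minus TSC difference, as did DESeq2 (1). In EpiSC and TSC the same-numbered libraries did not deviate together (correlations of −0.012 and −0.0027), so there the numbers share only a label; the block called Virma in EpiSC (0.0151) and Cbll1 in TSC (0.0227). With the block within EpiSC alone 6 members were called, Mettl3 lower, among 4872 genes. Over all genes, calls ranged from 62 to 4872 in EpiSC, 24 to 4378 in TSC and 25 to 2447 in XEN across settings, and leaving out 1 library gave 7 to 784, 3 to 478 and 414 to 1048. For the interactions counts stayed between 0 and 4 when 1 library was left out.

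Signs turned mainly under ribosomal protein scaling. Mettl14 became 0.112 in EpiSC and −0.017 in XEN. For EpiSC over TSC in DMSO, Mettl3 became 0.24 and Cbll1 0.27. For EpiSC over XEN, Wtap became −0.58, Cbll1 −0.46 and Rbm15b −0.49, and for TSC over XEN Mettl14 −0.12, Zc3h13 −1.04 and Cbll1 −0.73. Differences in response for EpiSC minus XEN became 0.074 (Mettl3), 0.129 (Mettl14), 0.187 (Zc3h13) and 0.0077 (Rbm15), and for TSC minus XEN 0.172 (Mettl3), 0.165 (Mettl14), 0.175 (Zc3h13) and 0.068 (Cbll1). For TSC minus XEN, DESeq2 and RLE scaling gave 0.017 and 0.016 for Mettl3 and 0.016 and 0.013 for Mettl14; Wtap for EpiSC minus TSC was 0.00095 without the low-count filter.

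Leaving out single libraries turned the sign of values near 0. Mettl14 ran from −0.087 to 0.095 in TSC, −0.032 to 0.030 in the mean, −0.125 to 0.057 for EpiSC minus TSC and −0.108 to 0.070 for TSC minus XEN. Mettl3 ran from −0.118 to 0.071 for TSC minus XEN. Wtap ran from −0.084 to 0.252 for TSC minus XEN, −0.091 to 0.246 for EpiSC minus XEN and −0.075 to 0.061 for EpiSC minus TSC, and Zc3h13 from −0.172 to 0.062, −0.152 to 0.081 and −0.061 to 0.099. Virma ran from −0.0015 to 0.035 for EpiSC minus XEN. In DMSO, Zc3h13 ran from −0.034 to 0.179 for TSC over XEN, Wtap from −0.0037 to 0.335 for EpiSC over XEN, and Mettl3 from −0.140 to 0.020 and Cbll1 from −0.069 to 0.0094 for EpiSC over TSC. The part of sequencing depth in these calls was not tested.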
